A study of Mus musculus with 20 samples.

Results

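The genes Ahr, Arnt, Ahrr, Tiparp, Zfp683, Hopx and Bhlhe40, which encode the aryl hydrocarbon receptor (AHR) pathway and transcription factors tied to tissue residency, were followed through bulk RNA-seq of mouse small intestinal TCRαβ+CD8αα+ intraepithelial lymphocytes (IELs), T cells that live between the gut epithelial cells. They were chosen by symbol, and all 7 were listed in every one of 20 libraries, among 25933 gene symbols listed in any library. In mice of genotype Bcl6-RFP/RFP, whose red fluorescent protein reports Bcl6, RFP+CD160+ cells (3 libraries) were compared with RFP-CD160- cells (3 libraries). All CD8αα+ αβ IELs were taken from mice of genotype Bcl6fl/fl Cd8cre, Prdm1fl/fl Cd8cre or Tcf7fl/fl Cd8cre (Bcl6 KO, Prdm1 KO and Tcf7 KO, 2 libraries each) and from littermates of genotype Bcl6fl/fl, Prdm1fl/fl or Tcf7fl/fl (Bcl6 WT, Prdm1 WT and Tcf7 WT, 2 libraries each). These genes encode the repressors BCL6 and BLIMP1 and the factor TCF1. Cd8cre, a Cre recombinase driven by Cd8 regulatory sequence, was present in every KO group and in no WT group, so an effect of Cre itself cannot be told apart from loss of the gene. The other 2 libraries were titled LI, came from Bcl6-RFP/RFP mice and were labelled small intestine; the labels put them in no group, so their values stand beside the sorted cells without a test. The mice were at steady state, and their age was not given in the sources used here. Nothing in the labels says that libraries of a group came from separate animals, so the p-values measure the spread between these libraries, which may be technical.

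AHR is a receptor of the cytosol that binds indoles from food, microbes and tryptophan, enters the nucleus, pairs with ARNT and binds DNA at a short core sequence. Its feedback arm includes AHRR, a repressor that competes for ARNT, and TIPARP, an enzyme that adds ADP-ribose to AHR and limits its activity. Mice without AHR keep few CD8αα+ IELs. HOBIT, the product of Zfp683, is a relative of BLIMP1 that helps lymphocytes of mouse tissues stay in place. HOPX is a small homeodomain protein that does not bind DNA itself and is found in effector and memory T cells, and BHLHE40 is a repressor that binds E-boxes, belongs to the output of the circadian clock and supports resident T cells.

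Promoter sequence was available for 4 of the 7 genes in RefSeq's table for GRCm38.p6, and the windows of Ahrr and Tiparp, the feedback genes of AHR, are shown because their RNA moved with that of Ahr in the sorted cells. Each window is the 250 bases before a transcription start, written 5′ to 3′ on the strand of the gene. Capitals mark the core bound by AHR with ARNT, GCGTG, or CACGC where it lies on the opposite strand. The Ahrr window (chr13:74292332-74292581, minus strand) held 3 cores, and the Tiparp window (chr3:65528197-65528446, plus strand) held 1.
Ahrr promoter: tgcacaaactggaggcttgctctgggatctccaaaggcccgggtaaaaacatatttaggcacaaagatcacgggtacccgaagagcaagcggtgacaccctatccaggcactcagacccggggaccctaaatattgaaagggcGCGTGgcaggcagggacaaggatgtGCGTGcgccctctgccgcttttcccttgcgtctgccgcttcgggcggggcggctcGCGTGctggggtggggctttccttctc
Tiparp promoter: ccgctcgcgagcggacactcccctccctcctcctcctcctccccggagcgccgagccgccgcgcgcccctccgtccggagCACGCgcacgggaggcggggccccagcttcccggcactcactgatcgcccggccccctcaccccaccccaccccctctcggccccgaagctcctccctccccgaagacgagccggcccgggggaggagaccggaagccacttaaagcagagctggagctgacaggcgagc
Of 32851 promoter windows of this length in the table, 28.2% held the core on either strand. In the Ahrr window the cores ended 103, 78 and 23 bases before the start, and in the Tiparp window the core ended 166 bases before it. The window of Arnt (chr3:95434140-95434389, plus strand) held 1 core. A match of letters is a description and not a bound site.

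Both annotated Hopx promoters are shown because Hopx had the most negative difference of the 7 genes in RFP+CD160+ cells and in Bcl6 KO. Capitals mark letters that resemble the core recognised by BLIMP1, GNGAAAG with N as any base, or CTTTCNC on the opposite strand. Of all windows, 19.4% held such a match, which is not a bound site. The first window was chr5:77095268-77095517 and the second chr5:77115124-77115373, both on the minus strand.
Hopx promoter nearer the gene's end: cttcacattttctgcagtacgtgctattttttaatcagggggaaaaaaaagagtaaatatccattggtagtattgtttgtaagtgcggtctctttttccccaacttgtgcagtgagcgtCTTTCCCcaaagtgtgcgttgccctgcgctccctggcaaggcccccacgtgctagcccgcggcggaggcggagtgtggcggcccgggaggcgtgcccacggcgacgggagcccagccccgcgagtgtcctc
Hopx promoter at the gene's start: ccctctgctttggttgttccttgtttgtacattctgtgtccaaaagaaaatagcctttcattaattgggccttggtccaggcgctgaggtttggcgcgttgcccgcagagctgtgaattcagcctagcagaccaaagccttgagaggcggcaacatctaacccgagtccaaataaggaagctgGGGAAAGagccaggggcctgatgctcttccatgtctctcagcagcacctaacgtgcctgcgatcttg
Each window held 1 such match, 125 bases before the start in the first and 61 bases before it in the second. Neither window held the palindrome TTCNNNGAA, which resembles the motif of BCL6 and occurred in 7.02% of windows, or the TCF core CTTTGA, or its reverse complement TCAAAG, present in 13.8%. The first also held 1 AHR core and 1 E-box CACGTG, the sequence bound by BHLHE40, found in 6.02% of windows. The AHR core and the E-box were separate in that window.

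Depth recovered from the values and rounded was 14538000 to 17371000 reads in the RFP libraries, 22532000 and 30030000 in LI, 22127000 to 23010000 in the Bcl6 libraries, 30139000 to 38386000 in the Prdm1 libraries and 40975000 to 48206000 in the Tcf7 libraries. Values of the RFP, LI and Bcl6 libraries are in FPKM, which are per gene length, and those of the Prdm1 and Tcf7 libraries are reads divided by a size factor of the library, called scaled reads here. Bcl6 stood at 13.7, 14.2 and 18.0 FPKM in RFP+CD160+ libraries, against 3.44, 3.30 and 3.59 FPKM in RFP-CD160- libraries. Prdm1 had 639.9 and 362 scaled reads in Prdm1 KO, against 6092 and 5117 in Prdm1 WT, and Tcf7 had 7757 and 7993 in Tcf7 KO, against 15430.3 and 15606 in Tcf7 WT. Bcl6 had 0.550 and 0.638 FPKM in Bcl6 KO, against 0.772 and 0.735 FPKM in Bcl6 WT, too low to check that deletion. The defining T cell genes Cd3e and Cd8a were high in every library, and Cd4 was low, at most 1.76 FPKM (Bcl6 KO 1) and 66.5 scaled reads (Prdm1 KO 2). In RFP+CD160+ cells 5 of 8 tested T cell and CD8αα+ IEL markers were lower and 1, the sort marker Cd160, was higher (median -0.48). There 2 of 3 tested CD4 and CD8αβ T cell markers were higher and none lower. In Tcf7 KO 1 of 8 T cell and IEL markers was lower, and 2 of 8 tested CD4 and CD8αβ T cell markers were higher and none lower (median 0.72). In Prdm1 KO libraries 11 of 18 tested epithelial marker genes were higher and none was lower, where 4.29% of all genes were higher and 2.54% lower. Their summed levels were 13304 to 23063 scaled reads in Prdm1 KO, against 6273 to 6985 in Prdm1 WT. In Tcf7 KO 5 of 18 were higher and 2 lower, where 1.49% of all genes were higher and 1.23% lower. In Bcl6 KO 2 of 18 were lower, as were 0.387% of all genes. In RFP+CD160+ cells 2 of 11 were lower, where 21.6% of all genes were lower and 16.4% higher. Of these 2, Krt18 reached the filter only in RFP-CD160- libraries. Summed levels of the epithelial markers were 59.5 to 102 FPKM in RFP+CD160+ cells, against 78.6 to 327 FPKM in RFP-CD160- cells. All 4 tested myeloid markers were lower there too, summing to 44.7 to 53.2 FPKM in RFP+CD160+ cells, against 91.8 to 104 FPKM in RFP-CD160- cells, although 1 of them, Itgam, reached the filter only in RFP-CD160- libraries. Of 5 tested myeloid markers, 2 were lower in Prdm1 KO and 2 were higher in Tcf7 KO. The part of these marker lists in the results was not tested. The library Prdm1 WT 1 stood apart from Prdm1 WT 2, with Tcf7 at 6605 scaled reads in Prdm1 WT 1 and 12467 in Prdm1 WT 2.

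Ahr RNA was higher in RFP+CD160+ cells. Ahr (chromosome 12, 35497974 to 35535038, GRCm38, protein-coding) stood at 62.0, 46.5 and 75.3 FPKM in the RFP+CD160+ libraries, against 27.8, 26.7 and 22.9 FPKM in the RFP-CD160- libraries. Every RFP+CD160+ library exceeded every RFP-CD160- library, and the spread was wider in the RFP+CD160+ group. The means were 61.3 ± 14.4 FPKM in RFP+CD160+ cells and 25.8 ± 2.59 FPKM in RFP-CD160- cells (SD, n = 3 each), a difference of 1.20 ± 0.16 (SE) on the log2(FPKM + 1) scale, or 2.29-fold (limma adjusted p = 6.9e-04). In these bulk libraries fewer cells that express a gene and less RNA per cell cannot be told apart. The LI libraries held 68.0 and 77.7 FPKM, in the range of the RFP+CD160+ libraries or just above it.

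Of the 7 genes, 6 passed an adjusted p of 0.05 in this comparison, Ahr, Ahrr, Tiparp and Zfp683 as higher and Hopx and Arnt as lower, while 38% of the 9717 genes tested were called (16.4% higher and 21.6% lower). Zfp683 was tested only because the RFP+CD160+ libraries reached the filter, so its call adds nothing to this count. The groups of these 6 genes did not overlap, which was also so for 23.4% of all genes as higher and 28.5% as lower. When library totals were made equal, the calls over all genes split into 3312 higher and 1164 lower, against 1591 and 2098 as deposited, and the median difference of all genes stood at 0.12, against -0.03. With quantile normalization the split was 2014 higher and 1747 lower. With equal totals Ahr (1.35), Ahrr (0.58) and Tiparp (0.96) remained above the median of all genes and Hopx (-0.87) below it, all called. Arnt (-0.09) lost its call (limma adjusted p = 0.28). Zfp683 stood at 1.18, which is a description only because of the filter.

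**Figure D1:**
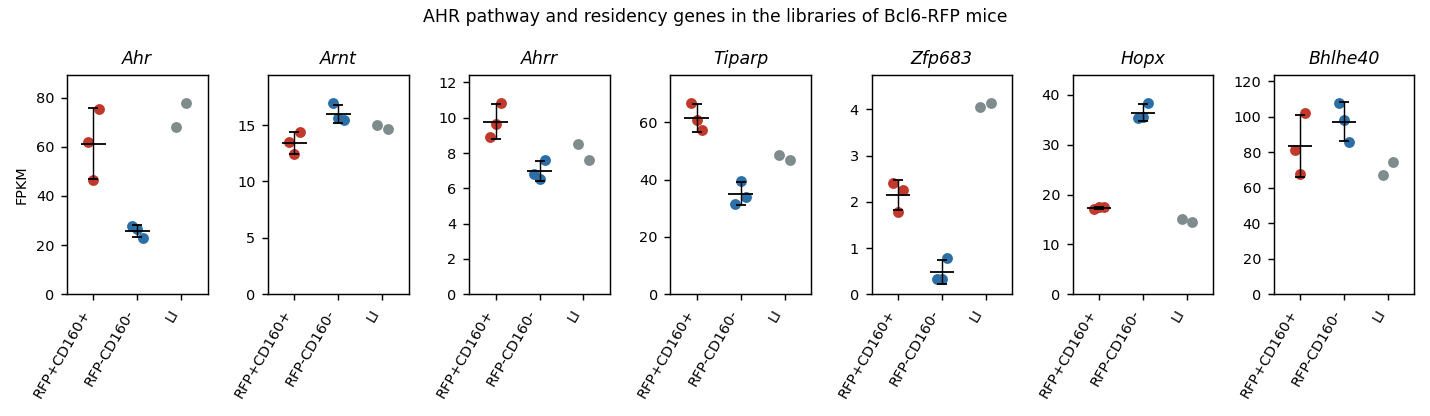
Levels in FPKM of the 7 genes in RFP+CD160+ (red, left), RFP-CD160- (blue, middle) and LI libraries (grey, right); points are libraries, and bars are mean ± SD for groups of 3. Ahr, Ahrr and Tiparp were higher and Hopx and Arnt lower in RFP+CD160+ cells with no overlap of groups, whereas Bhlhe40 overlapped. Of all genes tested, 23.4% were apart as higher and 28.5% as lower. Zfp683 was apart as higher too but reached the filter only in RFP+CD160+ libraries.

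Arnt, the DNA-binding partner of AHR and also of HIF1A, differed little. Arnt (chromosome 3, 95434388 to 95497240, GRCm38) stood at 13.5, 12.4 and 14.4 FPKM in RFP+CD160+ libraries, against 16.9, 15.6 and 15.4 FPKM in RFP-CD160- libraries, a difference of -0.24 ± 0.07 on the log2 scale (limma adjusted p = 0.025). The groups did not overlap, but the call was lost when totals were made equal, and without RFP+CD160+ 1, RFP+CD160+ 2, RFP-CD160- 1 or RFP-CD160- 2 (adjusted p from 0.054 to 0.078). LI libraries held 15.03 and 14.7 FPKM, between the groups. Its relative Arnt2 averaged 0.185 ± 0.0878 FPKM in RFP+CD160+ cells and 3.36 ± 0.852 FPKM in RFP-CD160- cells; it reached the filter of 1 FPKM only in the RFP-CD160- libraries, so these values stand as a description.

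The feedback genes of AHR were both higher in RFP+CD160+ cells. Ahrr (chromosome 13, 74211118 to 74292331, GRCm38) stood at 8.88, 9.64 and 10.8 FPKM in RFP+CD160+ libraries, against 6.80, 6.53 and 7.59 FPKM in RFP-CD160- libraries (0.43 ± 0.08 on the log2 scale, limma adjusted p = 0.0049). Tiparp (chromosome 3, 65528410 to 65555518, GRCm38) stood at 66.6, 60.6 and 57.1 FPKM in RFP+CD160+ libraries, against 31.6, 39.4 and 34.0 FPKM in RFP-CD160- libraries (0.80 ± 0.09 on the log2 scale, limma adjusted p = 2.9e-04). Neither gene's groups overlapped, and the difference of Tiparp was the larger of the pair. LI libraries held 8.53 and 7.62 FPKM of Ahrr and 48.7 and 46.9 FPKM of Tiparp, between the 2 sorted groups for both genes. Exons of Tiparp share 223 bases with the opposite-strand pseudogene 4931440P22Rik, and those of Ahr share 127 bases with Gm48236; whether reads were counted by strand was not given in the sources used here.

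The list of 20 AHR targets, which includes Ahrr and Tiparp, moved in both directions in the sorted cells: 3 of 8 tested genes were higher and 2 lower, where 16.4% of all genes were higher and 21.6% lower, with a median log2 difference of 0.26, against -0.03 over all genes tested. With equal totals 5 were higher and 2 lower. Kit, the receptor for stem cell factor, averaged 64.1 ± 7.75 FPKM in RFP+CD160+ cells and 20.8 ± 3.28 FPKM in RFP-CD160- cells (1.58 ± 0.12, limma adjusted p = 3.8e-05). Entpd1, which encodes the ectoenzyme CD39, averaged 10.1 ± 0.839 FPKM in RFP+CD160+ cells and 30.5 ± 1.67 FPKM in RFP-CD160- cells (-1.50 ± 0.07, limma adjusted p = 3.4e-06). These members of the list thus moved opposite ways by similar sizes. The fucosyltransferase gene Fut8 was the other one lower (-0.61). Kit also marks innate lymphoid and mast cells, of whose 3 tested markers Kit was higher and Cpa3 (-0.50) and Gata3 (-0.20) lower, and the part of such cells was not tested. The classical targets Cyp1a1 and Cyp1b1, detoxifying monooxygenases, were below the filter wherever they were listed, with no common direction. Cyp1a1 was 0 in both Bcl6 KO libraries, against 0.328 and 0.146 FPKM in Bcl6 WT, and had 6.36 and 6.24 scaled reads in Prdm1 KO, against 0 and 1.73 in Prdm1 WT. Cyp1b1 had 4.24 and 0 scaled reads in Prdm1 KO, against 2.07 and 6.90 in Prdm1 WT, and 3.98 and 3.79 in Tcf7 KO, against 0 in both Tcf7 WT libraries.

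Among 12 genes of the AHR complex and its PAS-domain relatives, 4 of 10 tested were higher in RFP+CD160+ cells and 2 lower, with a median of 0.19, or 6 higher and 1 lower with equal totals. The 2 lower genes were Arnt and Arnt2, of which Arnt2 reached the filter only in RFP-CD160- libraries. Over all genes tested, 16.4% were higher and 21.6% lower. The chaperone genes Hsp90aa1 (271 ± 45.9 FPKM in RFP+CD160+ and 156 ± 28 FPKM in RFP-CD160-, limma adjusted p = 0.0055) and Hsp90ab1 (0.57, adjusted p = 0.013), whose products hold AHR in the cytosol, were higher. The PAS-domain gene Hif1a was higher too (0.39 ± 0.06, limma adjusted p = 0.0015). Without RFP+CD160+ 1 the list had 3 calls in place of 6. Beside these genes, 26 of 31 immediate-early and heat-shock genes, which also respond to handling of cells, were higher and 3 lower (median 0.76). The higher count includes Hspb1, which reached the filter only in RFP+CD160+ libraries. Summed levels of the list were 6428 to 8209 FPKM in RFP+CD160+ libraries, against 3683 to 4474 FPKM in RFP-CD160- libraries. The part of this list in the Ahr, Tiparp and Hsp90 values was not tested.

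In the Bcl6 libraries Ahr was low and variable. Ahr stood at 8.81 and 12.2 FPKM in Bcl6 KO, against 11.3 and 7.03 FPKM in Bcl6 WT, below every library of the sorted cells, although the tables were normalized separately. The Bcl6 groups overlapped, and the difference was 0.20 with a 95% interval from -0.36 to 0.75 (limma adjusted p = 0.96). Tiparp stood at 53.4 and 69.4 FPKM in Bcl6 KO, against 86.7 and 70.5 FPKM in Bcl6 WT. Both KO values lay below both WT values, Bcl6 KO 2 by a narrow margin, as was so for 14% of all genes. The difference was -0.35 (interval -0.79 to 0.08, limma adjusted p = 0.92), and -0.54 without Bcl6 KO 2. Arnt held 15.1 and 14.1 FPKM in Bcl6 KO, against 15.1 and 12.7 FPKM in Bcl6 WT, and Ahrr 8.19 and 6.99 FPKM in Bcl6 KO, against 7.68 and 8.00 FPKM in Bcl6 WT. Neither pair separated. Hopx was the sole gene of the 7 called in Bcl6 KO, where 0.418% of 9573 genes were called (0.0313% higher and 0.387% lower).

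None of 8 tested AHR targets was called in Bcl6 KO (limma), 2 had an unadjusted p under 0.05, and they had a median of -0.14, against 0.03 over all genes; 1 was lower without Bcl6 KO 1 and 1 without Bcl6 KO 2. In the complex list Hsp90aa1 fell to 146 ± 1.99 FPKM in Bcl6 KO, against 406 ± 27.4 FPKM in Bcl6 WT (-1.47 ± 0.16, limma adjusted p = 0.0054), the only call of 10; there were 2 without either Bcl6 KO library, with equal totals and with quantile normalization. The immediate-early and heat-shock genes had 12 lower and none higher of 30 (median -0.91), where 0.387% of all genes were lower and 0.0313% higher. They summed to 5085 to 5739.7 FPKM in Bcl6 KO, against 9366 to 9731 FPKM in Bcl6 WT. Without Bcl6 KO 1, 24 were lower and 2 higher. Their part in the values of the 7 genes was not tested.

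In the Prdm1 libraries none of the 7 genes was called by limma or by edgeR, and 1, Hopx, had an unadjusted p under 0.05, while limma called 6.84% of 10969 genes (4.29% higher and 2.54% lower). Ahr had 20004 and 12721 scaled reads in Prdm1 KO, against 12515 and 10771 in Prdm1 WT. Prdm1 KO 2 exceeded Prdm1 WT 1 by a narrow margin. The difference was 0.46 (interval -0.05 to 0.97, limma adjusted p = 0.29), with 0.78 without Prdm1 KO 2 and 0.13 without Prdm1 KO 1. Ahrr had 2537 and 3002 scaled reads in Prdm1 KO, against 1926 and 3243 in Prdm1 WT, Tiparp 9012 and 7440.0 in Prdm1 KO, against 8340.0 and 8389.6 in Prdm1 WT, and Arnt 4331 and 3924 in Prdm1 KO, against 4826 and 4466 in Prdm1 WT. Ahrr and Tiparp overlapped between groups; without Prdm1 WT 2, Ahrr passed as higher (0.52, adjusted p = 0.036), and without Prdm1 WT 1 it was -0.23. The differences were 0.14 for Ahrr (interval -0.42 to 0.70), -0.03 for Tiparp (-0.32 to 0.25) and -0.17 for Arnt (-0.41 to 0.07).

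The targets called in Prdm1 KO were Kit, at 37380.2 ± 595 scaled reads in Prdm1 KO and 14725 ± 4429 in Prdm1 WT (1.38 ± 0.20, limma adjusted p = 0.014), the integrin gene Itgb8 (1.33, adjusted p = 0.025) and, as lower, Entpd1 (-0.66, adjusted p = 0.026). These were 2 higher and 1 lower of 11 tested, with a median of 0.14, against -0.04 over all genes; the count was 6 without Prdm1 WT 1 and 1 without Prdm1 KO 2. Arnt2 fell to 187 ± 36.8 scaled reads in Prdm1 KO, against 755 ± 15.4 in Prdm1 WT (-2.02 ± 0.19, limma adjusted p = 0.0036), the only call of 11 in the complex list; without Prdm1 WT 2 there were 2. Arnt2 reached the filter in libraries of both Prdm1 groups. Over all genes tested, 4.29% were higher and 2.54% lower in Prdm1 KO. Beside them 5 of 30 immediate-early and heat-shock genes were higher in Prdm1 KO and 1 lower (median 0.37), or 10 calls without either Prdm1 WT library and with equal totals. Their part and that of the epithelial markers in these values was not tested.

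In the Tcf7 libraries, the most deeply sequenced, the difference furthest from 0 among the AHR genes was that of Ahrr, and none of them was called. Ahr had 6675 and 7027 scaled reads in Tcf7 KO, against 7509.6 and 7518 in Tcf7 WT (-0.13, limma adjusted p = 0.29). Ahrr had 2450.0 and 2608 in Tcf7 KO, against 3062 and 2965 in Tcf7 WT (-0.25, limma adjusted p = 0.064), and Tiparp 5821 and 5737 in Tcf7 KO, against 6199 and 5980.1 in Tcf7 WT (-0.08, limma adjusted p = 0.64). All 3 genes were lower in both KO libraries than in both WT libraries, as were 20.7% of all genes, without passing the test; without Tcf7 WT 2, Ahrr passed (-0.28, adjusted p = 0.021). Arnt had 5250.2 and 5488 in Tcf7 KO, against 5401 and 5424 in Tcf7 WT, with an interval from -0.13 to 0.11. Kit fell to 14596 ± 444 scaled reads in Tcf7 KO, against 21884 ± 401 in Tcf7 WT (-0.58 ± 0.05, limma adjusted p = 1.5e-05). Entpd1 rose to 8589.5 ± 222 in Tcf7 KO, against 6096 ± 391 in Tcf7 WT (0.50 ± 0.06, limma adjusted p = 2.1e-04). They were the 2 calls of 11 tested targets (median 0.03, against 0.0018 over all genes), where 1.49% of all genes were higher and 1.23% lower. None of 11 complex genes was called by limma or edgeR, and 1 had an unadjusted p under 0.05. Of 30 immediate-early and heat-shock genes 3 were higher and 5 lower in Tcf7 KO (median -0.03), with 2 calls without either Tcf7 KO library and 5 with quantile normalization.

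**Figure D2:**
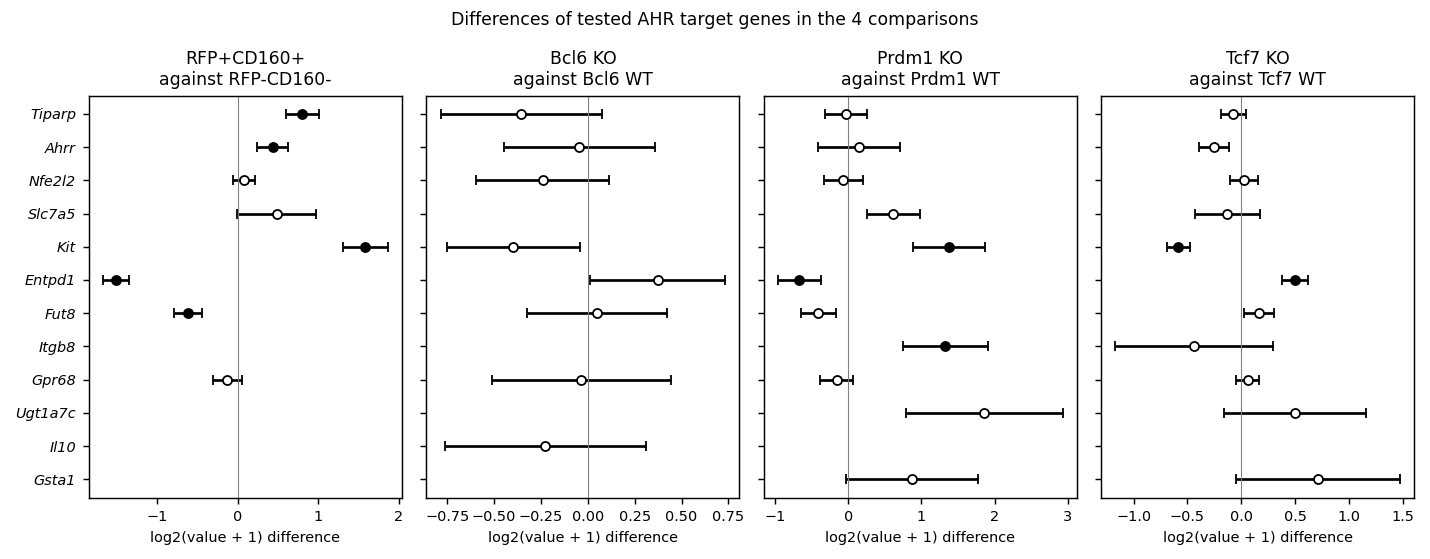
Differences of the tested AHR target genes on the log2(value + 1) scale (horizontal axis) in each comparison, each panel on its own scale; points are estimates, bars are 95% intervals not adjusted for multiple tests, and filled points passed an adjusted p of 0.05. Kit stood at 1.58 in RFP+CD160+ cells, 1.38 in Prdm1 KO and -0.58 in Tcf7 KO, with Entpd1 on the opposite side of 0 in each.

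Zfp683, the gene for HOBIT, was a low transcript in every library. Zfp683 (chromosome 4, 134053838 to 134058996, GRCm38) stood at 2.41, 1.78 and 2.25 FPKM in RFP+CD160+ libraries (53, 38 and 56 reads), against 0.329, 0.326 and 0.783 FPKM in RFP-CD160- libraries (8, 8 and 20 reads). The groups were apart, and the gene passed the filter of 1 FPKM only through the RFP+CD160+ libraries. The difference was 1.10 ± 0.15 on the log2(FPKM + 1) scale, which understates low genes, and 2.03 with a pseudocount of 0.1. These values stand as a description. LI libraries held 4.05 and 4.13 FPKM (179 and 137 reads), above both sorted groups.

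In the knockouts Zfp683 stood at 0.211 and 0.12 FPKM in Bcl6 KO (7 and 4 reads), against 0.325 and 0.399 FPKM in Bcl6 WT (11 and 13 reads), and was too low to be tested. It had 75.2 and 26.0 scaled reads in Prdm1 KO, against 35.2 and 17.3 in Prdm1 WT, and was not tested there either; the groups overlapped. In the Tcf7 libraries it had 242 and 163 scaled reads in Tcf7 KO, against 117 and 96.1 in Tcf7 WT. The difference of 0.90 (interval 0.35 to 1.45, not adjusted) did not pass (limma adjusted p = 0.10). Without Tcf7 WT 1 it passed (1.04, adjusted p = 0.011), and without the other libraries in turn the adjusted p ran from 0.066 to 0.72.

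The other residency genes, a list of 23, moved both ways in the sorted cells, 7 higher and 10 lower (median -0.14), or 7 higher and 7 lower with equal totals. Over all genes tested, 16.4% were higher and 21.6% lower, or 38% in either direction. Prdm1, the gene for the HOBIT relative BLIMP1, averaged 1.04 ± 0.223 FPKM in RFP+CD160+ cells and 26.9 ± 4.76 FPKM in RFP-CD160- cells (limma adjusted p = 1.2e-06). The chemokine receptor gene Cxcr6 (-1.98, limma adjusted p = 8.3e-07) and Itgae, for the integrin that binds epithelial E-cadherin (-0.68, adjusted p = 7.8e-05), were lower as well. Among the 7 higher were Xcl1, for a chemokine (3.14, limma adjusted p = 6.9e-04), Ccr9, for a gut-homing receptor (0.87, adjusted p = 1.2e-04), and Cd69, for a surface protein that retains T cells in tissue (0.68, adjusted p = 0.012). Of 7 tested genes of egress and circulation, 4 were higher and 1 lower (median 0.57), led by Tcf7 at 234 ± 10.1 FPKM in RFP+CD160+ cells and 4.93 ± 1.33 FPKM in RFP-CD160- cells (limma adjusted p = 6.0e-07). The integrin gene Itgb1 followed (0.57, adjusted p = 6.6e-05). The zinc finger gene Klf3, at 3.2 ± 0.862 FPKM in RFP+CD160+ cells and 0.229 ± 0.058 FPKM in RFP-CD160- cells, was counted as higher but reached the filter only in the RFP+CD160+ libraries.

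No residency gene of 23 and no egress gene of 7 was called in Bcl6 KO by limma, with 4 and 3 at an unadjusted p under 0.05, but 12 residency genes and 1 egress gene were called without Bcl6 KO 1, and 3 residency genes and 1 egress gene without Bcl6 KO 2. In Prdm1 KO 1 residency gene, the chemokine gene Xcl1 (1.64, limma adjusted p = 0.016), was higher and 2 were lower, Prdm1 itself and Cxcr6 (-1.55, adjusted p = 0.0027); without Prdm1 WT 2 there were 6 calls. Tcf7 (1.73, limma adjusted p = 0.016) and Itgb1 (0.59, adjusted p = 0.021) were the 2 higher of 8 tested egress genes. In Tcf7 KO 3 residency genes were higher and 3 lower, the smallest p-values being those of Cxcr6 (0.63, limma adjusted p = 6.8e-05), the gut-homing receptor gene Ccr9 (-0.26, adjusted p = 0.011) and Osgin1 (0.26, adjusted p = 0.011). The list had 2 calls without Tcf7 KO 1 and 3 without Tcf7 KO 2. Of 10 egress genes, only the deleted Tcf7 was lower. The shares over all genes were 0.418% called in Bcl6 KO, 4.29% higher and 2.54% lower in Prdm1 KO, and 1.49% higher and 1.23% lower in Tcf7 KO.

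Hopx was lower in RFP+CD160+ cells and in Bcl6 KO. Hopx (chromosome 5, 77086988 to 77115121, GRCm38) stood at 17.1, 17.4 and 17.5 FPKM in RFP+CD160+ libraries, against 35.3, 35.5 and 38.3 FPKM in RFP-CD160- libraries. The 3 RFP+CD160+ values were nearly equal and lay at about the same distance below every RFP-CD160- value (-1.03 ± 0.05, 0.490-fold, limma adjusted p = 4.4e-06). LI libraries held 15.2 and 14.4 FPKM, below both groups. In Bcl6 KO it had 0.936 and 1.28 FPKM (32 and 44 reads), against 5.45 and 6.56 FPKM in Bcl6 WT (190 and 220 reads). That difference was -1.73 ± 0.20 (limma adjusted p = 0.0068) and -2.35 with a pseudocount of 0.1, and it passed in every alternative and with each library left out. The WT values of that experiment were themselves below those of every sorted library, in tables normalized separately.

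In Prdm1 KO Hopx had 1800.0 and 1463 scaled reads, against 2799 and 2152 in Prdm1 WT. Both KO libraries were lower, and the difference of -0.60 (interval -0.98 to -0.21) did not pass (limma adjusted p = 0.085); it passed without Prdm1 WT 2 (-0.79, adjusted p = 0.0062) and without Prdm1 KO 1 (-0.75, adjusted p = 0.018). In Tcf7 KO it had 1916 and 1661 scaled reads, against 1957 and 2233 in Tcf7 WT, a difference of -0.23 (limma adjusted p = 0.28) that passed without Tcf7 WT 1 (-0.32, adjusted p = 0.013). Hopx was the single gene of the 7 whose difference was below 0 in all 4 comparisons with no overlap of groups in any, which 28.5%, 14%, 30.6% and 20.7% of genes showed in the RFP, Bcl6, Prdm1 and Tcf7 comparisons taken 1 at a time. The sign depends on which group is put first. RFP+CD160+ cells had more Bcl6 and Tcf7 RNA than RFP-CD160- cells. Hopx was thus lower where the RNA of these 2 genes was higher, in the sorted cells, and also in Bcl6 KO and Tcf7 KO. Prdm1 RNA, in contrast, was lower in RFP+CD160+ libraries (0.826, 1.27 and 1.02 FPKM) than in RFP-CD160- libraries (21.4, 29.4 and 29.8 FPKM). In the Bcl6 libraries Bcl6 RNA was too low to check the deletion. The part of Bcl6, Prdm1 and Tcf7 in the Hopx values was not tested. Exons of Hopx share 412 bases with the antisense gene Hopxos, so reads of the pair cannot be told apart without strand.

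**Figure D3:**
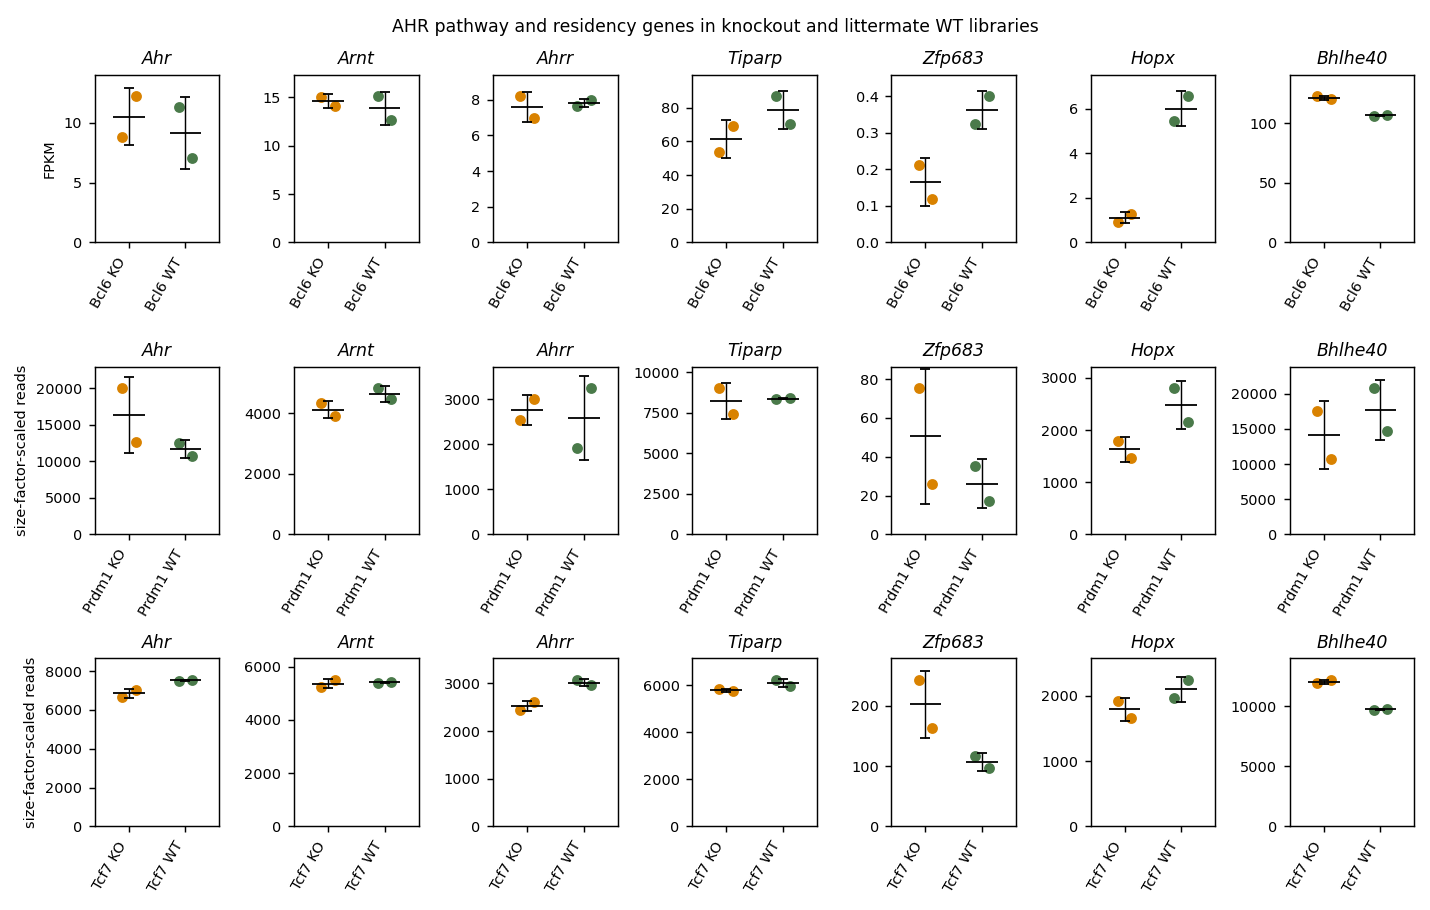
Levels of the 7 genes in knockout (orange, left) and littermate WT (green, right) libraries, in FPKM for Bcl6 and in size-factor-scaled reads for Prdm1 and Tcf7; points are libraries and bars are mean ± SD (n = 2). Hopx in Bcl6 KO (1.11 ± 0.242 FPKM, against 6.00 ± 0.785 FPKM in Bcl6 WT) and Bhlhe40 in Tcf7 KO are the separations that passed the test.

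Bhlhe40 was abundant in every library and passed the test only in Tcf7 KO. Bhlhe40 (chromosome 6, 108660629 to 108666925, GRCm38) stood at 81.05, 67.6 and 102 FPKM in RFP+CD160+ libraries, against 108, 98.2 and 85.6 FPKM in RFP-CD160- libraries. These groups overlapped (-0.23, interval -0.56 to 0.11, limma adjusted p = 0.25), and the difference passed only without RFP+CD160+ 3 (-0.38, adjusted p = 0.038). LI libraries held 67.1 and 74.4 FPKM, the lower of them below all 6 sorted libraries. In Tcf7 KO it had 11910.5 and 12139 scaled reads, against 9672 and 9774 in Tcf7 WT. The libraries of each Tcf7 group lay close together, so that a 1.24-fold difference (0.31 ± 0.05, limma adjusted p = 0.0024) passed, with every library left out in turn as well, in a comparison where 2.72% of 15210 genes were called (1.49% higher and 1.23% lower). Of the 7 genes it was the only one called there.

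In Bcl6 KO Bhlhe40 stood at 123 and 120.3 FPKM, against 107 and 107 FPKM in Bcl6 WT, a difference that did not pass (0.18, interval -0.16 to 0.53, limma adjusted p = 0.95). In Prdm1 KO it had 17525 and 10739 scaled reads, against 20734 and 14646 in Prdm1 WT. The spread within each Prdm1 group was as large as the difference of -0.35 (interval -0.96 to 0.27, limma adjusted p = 0.50), and without Prdm1 KO 2 the difference was 0.0082. Exons of Bhlhe40 share 118 bases with the antisense gene 0610040F04Rik. Of 16 genes of the circadian clock, in whose output BHLHE40 acts, 2 of 13 tested were higher in RFP+CD160+ cells and 3 lower (median 0.09), the same share of calls as the 38% over all genes, and with equal totals 6 were higher and 1 lower. The gene with the smallest p was Per1 (113 ± 10.6 FPKM in RFP+CD160+ and 82.1 ± 6.58 FPKM in RFP-CD160-, limma adjusted p = 0.0040), and without RFP+CD160+ 1 there were 3 calls. None of 13 was called in Bcl6 KO by limma or of 13 in Tcf7 KO by limma or edgeR, with 2 at an unadjusted p under 0.05 in each, though 2 were lower without Bcl6 KO 1 and 1 without Tcf7 WT 1. In Prdm1 KO 1 of 14, the repressor gene Nr1d1, was higher (171 ± 1.56 scaled reads in Prdm1 KO and 43.8 ± 15.6 in Prdm1 WT, limma adjusted p = 0.020). Over all genes, 6.84% were called in Prdm1 KO, 0.418% in Bcl6 KO and 2.72% in Tcf7 KO.

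**Figure D4:**
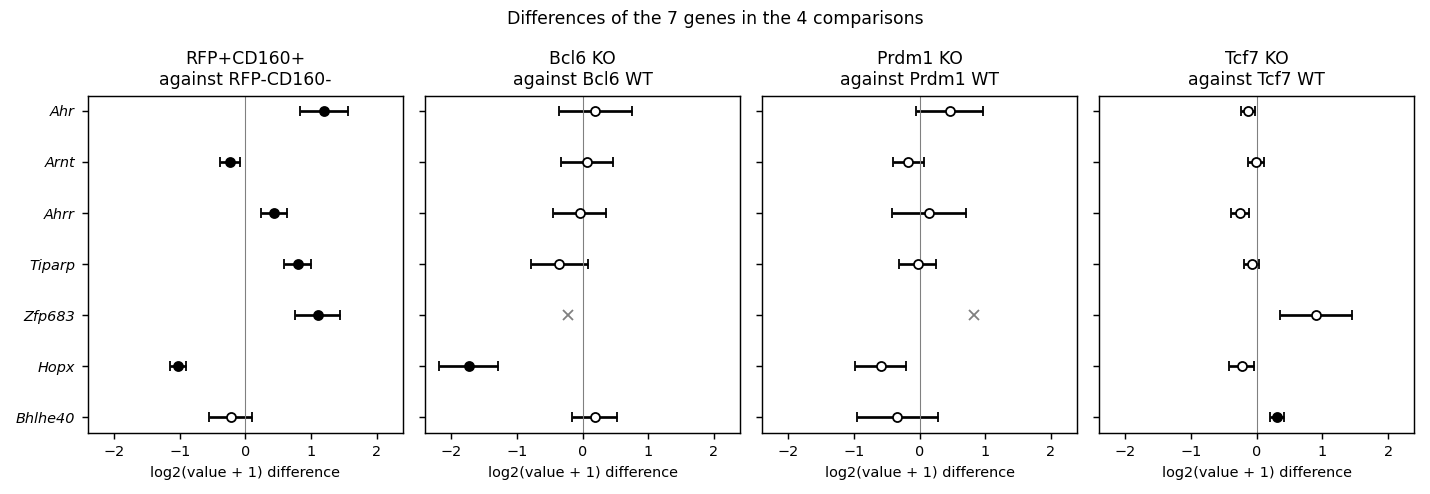
Differences of the 7 genes on the log2(value + 1) scale (horizontal axis) in the 4 comparisons; points are estimates, bars are 95% intervals not adjusted for multiple tests, filled points passed an adjusted p of 0.05, and grey crosses are Zfp683 where it was too low to test. Of the 7, Hopx alone passed in more than 1 comparison, at -1.03 in RFP+CD160+ cells and -1.73 in Bcl6 KO. RFP+CD160+ cells had more Bcl6 RNA than RFP-CD160- cells, so Hopx was lower both with more Bcl6 RNA and in the knockout. The part of Bcl6 in these values was not tested. Zfp683 in the RFP comparison reached the filter only through the RFP+CD160+ libraries.

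On the per-length scale of the FPKM tables the order of the genes differed between the experiments. In RFP+CD160+ cells Bhlhe40 stood first (83.7 ± 17.5 FPKM), above Tiparp and Ahr in each library, and Tiparp (61.5 ± 4.79) and Ahr (61.3 ± 14.4) did not differ beyond their spread. They were above Hopx (17.3 ± 0.201), Arnt (13.4 ± 0.977), Ahrr (9.78 ± 0.976) and Zfp683 (2.15 ± 0.328). In RFP-CD160- cells Hopx (36.4 ± 1.66 FPKM), Tiparp (35.0 ± 3.99) and Ahr (25.8 ± 2.59) followed Bhlhe40 (97.1 ± 11.0), and Hopx and Tiparp did not differ beyond their spread. In the Bcl6 libraries Bhlhe40 was again first (121 ± 1.67 FPKM in Bcl6 KO and 107 ± 0.357 FPKM in Bcl6 WT) and Tiparp next (61.4 ± 11.3 FPKM in Bcl6 KO and 78.6 ± 11.5 FPKM in Bcl6 WT). There Ahr (10.5 ± 2.39 FPKM in Bcl6 KO and 9.15 ± 2.99 FPKM in Bcl6 WT) stood near Ahrr and below Arnt.

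Likeness of pattern was described by Pearson's r of log2(value + 1), centred on each experiment's mean, over the 18 grouped libraries and among 8814 other genes. These r hold the differences between groups and between libraries together and carry no test. Tiparp ran most like the immediate-early genes Jund (r = 0.943) and Ier5 (r = 0.916) and the activation marker Cd69 (r = 0.909). Ahr ran most like Gnl3 (r = 0.946), Abl2 (r = 0.940) and Clcn3 (r = 0.939), and Arnt most like the nuclear lamina gene Lmnb1 (r = 0.935), Vamp3 (r = 0.933) and the centromere gene Cenpa (r = 0.927). Hopx ran most like the cell death gene Pmaip1 (r = 0.914), the potassium channel gene Kcnk5 (r = 0.891) and Stat4 (r = 0.884). Bhlhe40 ran most like Usp38 (r = 0.932), the phosphatase gene Dusp5 (r = 0.919) and Ss18l1 (r = 0.909), and Ahrr most like Eif3g (r = 0.888), Wdr36 (r = 0.888) and Skap1 (r = 0.879). Zfp683 was left out because it was too low in 2 experiments. Among the genes themselves the highest r was that of Ahr and Tiparp (r = 0.777), followed by Arnt and Bhlhe40 (r = 0.714); that of Ahr and Arnt was -0.371.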

How the data were processed

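RNA of sorted IELs was sequenced in bulk in 20 libraries. Per the labels' protocols, RNA was isolated with MagZol and either of 2 companies prepared the libraries. Tools listed, without roles, in the submitters' processing notes are RSEM, Subread with featureCounts, DESeq2, Bowtie2 and Trim Galore 0.4.4, and the build is mm10. The authors deposited FPKM for the RFP, LI and Bcl6 libraries. The Prdm1 and Tcf7 libraries were deposited as a signal, reads divided by a size factor, of which 100% of values were whole multiples of 1 read (tolerance 0.01). Of low FPKM values, 96.9 to 98.3% were whole reads (tolerance 0.05, with GENCODE vM21 exon lengths). Depth was taken from these reads.

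Tests were two-sided and used limma 3.58.1 (R 4.3.3; lmFit, eBayes with trend) on log2(value + 1), separately for each comparison. Genes needed 1 FPKM, or a signal of 50, in a number of libraries equal to the smaller group's size. P-values were adjusted over all of these genes by Benjamini-Hochberg, with a threshold of 0.05. Alternatives were another pseudocount (0.1 FPKM, 10 in signal), no filter, equal library totals, quantile normalization, the replicate number as a block, leaving out each library, and edgeR 4.0.16 (quasi-likelihood, TMM) on the recovered reads. The procedure was tested on simulated data. The 7 genes and the lists were chosen with earlier results of these data known. Named list genes are at most 3 called per list and comparison, by p, plus a few singled out after their values were seen (Fut8, Hsp90ab1, Hspb1, Xcl1, Ccr9, Cd69, Cpa3, Gata3 and Itgam in the sorted cells). Replicate numbers were not used to pair samples in the main tests, and whether libraries of different groups are paired was not settled. LI libraries entered no test.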

Additional observations from a re-analysis of the deposited data

Results flagged for a closer look

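The LI libraries, left without a group by their labels, held a signal of 4 of the 7 genes above every RFP-CD160- library. Zfp683 stood at 4.05 FPKM in LI 1 and 4.13 FPKM in LI 2, against 0.783 FPKM at most in RFP-CD160- cells. Ahr stood at 68.0 FPKM in LI 1 and 77.7 FPKM in LI 2, against 27.8 FPKM at most. Tiparp stood at 48.7 FPKM in LI 1 and 46.9 FPKM in LI 2, against 39.4 FPKM at most. Ahrr stood at 8.53 FPKM in LI 1 and 7.62 FPKM in LI 2, the lower just above the RFP-CD160- maximum of 7.59 FPKM. The LI libraries listed 12975 genes, as did those of the sorted cells, and no test was made.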

How the results depend on the processing

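Of 272 alternative values of the 28 results for the 7 genes, 241 kept direction and side of the threshold, 6 lost a call (all Arnt in RFP+CD160+ cells), 14 gained one and 11 changed sign. The counts of genes called were 40 in Bcl6 KO, 750 in Prdm1 KO and 413 in Tcf7 KO; with the replicate block they were 78, 2386 and 977, and leaving out 1 library gave 39 to 1562, 569 to 1255 and 243 to 738. The RFP count of 3689 kept within 2706 to 3402 over left-out libraries and was 2992 with the block. edgeR called 772 genes in Prdm1 KO and 429 in Tcf7 KO. Same-numbered deviations correlated at -0.459 in the Bcl6 libraries, and a crossed block, added after seeing the data, gave 452 calls. Elsewhere same-numbered r was -0.331 to -0.000269 (RFP), 0.528 (Prdm1) and 0.064 (Tcf7), and 2 pairs do not show pairing. In the RFP libraries r was positive only for RFP+CD160+ 1 with RFP-CD160- 2 (0.362), RFP+CD160+ 2 with RFP-CD160- 3 (0.426) and RFP+CD160+ 3 with RFP-CD160- 1 (0.485). No fit used that matching, and whether these libraries share a source was not tested. Under the block Arnt in RFP+CD160+ cells lost its call (limma adjusted p = 0.051), and Bhlhe40 (adjusted p = 0.0090), Hopx (2.2e-04) and Ahr (0.0043) in Prdm1 KO and Zfp683 (0.022) and Ahrr (0.0077) in Tcf7 KO gained one. Counts for the lists under the block were, in Prdm1 KO, 12 residency, 6 AHR target, 3 AHR complex, 4 clock, 4 egress and 19 immediate-early and heat-shock genes, against 3, 3, 1, 1, 2 and 6 without it, and in Tcf7 KO 13, 3, 1, 0, 2 and 13, against 6, 2, 0, 0, 1 and 8. Signs changed for Tiparp in Prdm1 KO (0.046 with equal totals, 0.039 with quantile normalization, 0.015 with edgeR, -0.17 to 0.11 over left-out libraries) and, over left-out libraries, for Ahr (-0.11 to 0.50), Ahrr (-0.15 to 0.056) and Arnt (-0.048 to 0.19) in Bcl6 KO, Bhlhe40 (-0.70 to 0.0082) and Ahrr (-0.23 to 0.52) in Prdm1 KO and Arnt (-0.044 to 0.020) in Tcf7 KO. The causes were not tested. Zfp683 was too low to test in the Bcl6 and Prdm1 libraries, and without a filter its limma adjusted p was 0.90 and 0.51. With no main test there, its alternatives were counted among the 241 because they moved by less than the SD within groups.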
